A study of Mus musculus with 24 samples.

Results

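Inguinal mammary glands of NZB mice on lactation day 21 were compared with glands of non-lactating NZB mice, 3 mice against 3, which are 6 of the 24 samples of the series. The members were chosen by their labels alone: the titles name BL/6 NZB mice on lactation day 21 and BL/6 NZB mice that were not lactating, and the 2 deposited columns of a mouse were averaged as counts per 1000000 reads (CPM). Both groups carry the genotype tag BL/6 NZB, a name used for mice that have the mitochondrial DNA of the NZB strain on a BL/6 nuclear background, so this trait is shared by the day 21 and the non-lactating glands. The sample labels give no age, parity or litter size, and no time since the last suckling. The authors' name for the deposited values refers to a first pregnancy. That name does not say how this applies to the non-lactating mice. The remaining samples are NZB glands on lactation days 8 and 14 and BL/6 C57 glands of the same 4 states, 3 mice each, and they are used below only to place the day 21 glands. The series title names organelle responses to lactation as the subject. Nothing in the labels says more about the mice of a group than that they were separate samples, so each p below measures the spread between these samples.

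The lactating mammary gland is built of alveoli whose luminal cells secrete milk and are wrapped by contractile myoepithelial cells, set in a stroma of fat cells, fibroblasts and vessels. Prolactin acts through STAT5 and ELF5 to keep the secretory genes on, and the casein and whey protein genes then take a large part of the messenger RNA of the gland. When suckling stops, the gland involutes: STAT3 and TGF beta signals, IGF binding proteins, lysosomal proteases and defence proteins come up, secretory cells die, and the fat returns. NRF2, a transcription factor that senses oxidants, turns on antioxidant genes, and the endoplasmic reticulum and Golgi carry the load of secretion.

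Day 21 glands held 18.87, 14.81 and 16.42 times 1000000 reads in mice 1, 2 and 3, against 13.45, 12.39 and 9.92 in non-lactating mice 1, 2 and 3. The 20 measured genes of a list of milk proteins took 30.47%, 18.24% and 25.90% of the reads in day 21 glands, against 2.01%, 1.02% and 1.48% in non-lactating glands. The groups did not overlap. The means were 24.87% ± 6.18 on day 21 and 1.5% ± 0.49 in non-lactating glands (SD, n = 3 each), a difference of 23.37 percentage points with an exact 2-sided permutation p of 0.1, the smallest that 3 against 3 allows. A larger milk share lowers the CPM of every other gene, so levels below are CPM after the milk protein genes were left out of the total, called non-milk CPM. For a milk protein gene this is its reads per 1000000 reads of all other genes. The median log2 fold change of all tested genes was −0.05 on the non-milk scale and −0.40 on the deposited scale, and the counts over all genes and over many lists are given on both. The libraries were not even within their groups: non-lactating mice 2 and 3 held lymphocyte transcripts that non-lactating mouse 1 and the day 21 mice had at low level. The summed level of the B cell marker list was 163.4, 106.8 and 96.2 in day 21 glands, against 337.7, 1408.2 and 2696.2 in non-lactating glands. Cd3e of T cells stood at 5.98, 6.23 and 4.07 in day 21 glands, against 2.20, 33.4 and 266 in non-lactating glands. Counts over all genes and over many lists are therefore also given without these 2 libraries, and as the lowest and highest count with 1 of the 6 mice left out. A gene counts as measured in a comparison where its CPM was over 1 in at least 3 of the libraries compared.

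Promoter sequence is shown for genes at the centre of the comparison, the casein and whey genes of the prolactin and STAT5 response and the antioxidant genes of the NRF2 response. Each is the 250 bases before the annotated start, from RefSeq (GRCm38.p6), printed 5′ to 3′ on the strand of the gene. Capitals mark the match to TTCNNNGAA, the spaced palindrome that STAT proteins recognise, in the first 3.
Csn1s1: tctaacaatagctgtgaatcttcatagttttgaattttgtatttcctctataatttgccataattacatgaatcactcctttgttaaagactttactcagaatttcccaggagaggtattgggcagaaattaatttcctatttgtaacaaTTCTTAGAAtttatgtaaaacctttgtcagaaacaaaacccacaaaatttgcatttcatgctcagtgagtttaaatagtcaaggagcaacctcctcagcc
Csn2: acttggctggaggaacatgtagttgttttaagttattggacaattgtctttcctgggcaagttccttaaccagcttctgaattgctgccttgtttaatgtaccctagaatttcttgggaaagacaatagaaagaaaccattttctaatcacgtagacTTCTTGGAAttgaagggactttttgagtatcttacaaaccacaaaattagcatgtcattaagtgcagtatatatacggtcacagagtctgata
Glycam1: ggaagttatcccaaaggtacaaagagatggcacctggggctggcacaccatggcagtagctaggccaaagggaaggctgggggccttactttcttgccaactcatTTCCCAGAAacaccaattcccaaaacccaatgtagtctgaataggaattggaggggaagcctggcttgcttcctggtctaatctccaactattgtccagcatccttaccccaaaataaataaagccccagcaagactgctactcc
They lie at chr5:87665958-87666207 (plus strand), chr5:87699426-87699675 (minus strand) and chr15:103565082-103565331 (minus strand), and the matches begin 100, 93 and 145 bases before the start. Of the 21 genes on the milk protein list 14 had a promoter in the table, and these 3 held a match, against 2306 of 32851 promoters of the same length (7.02%). In the next 4 the capitals mark a match on either strand to TGACNNNGC, the core of the antioxidant response element.
Prdx1: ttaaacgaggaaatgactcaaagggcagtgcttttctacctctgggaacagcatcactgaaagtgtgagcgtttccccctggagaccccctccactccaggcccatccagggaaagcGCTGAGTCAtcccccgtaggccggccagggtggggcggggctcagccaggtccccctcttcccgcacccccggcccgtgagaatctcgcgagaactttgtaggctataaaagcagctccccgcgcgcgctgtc
Gclm: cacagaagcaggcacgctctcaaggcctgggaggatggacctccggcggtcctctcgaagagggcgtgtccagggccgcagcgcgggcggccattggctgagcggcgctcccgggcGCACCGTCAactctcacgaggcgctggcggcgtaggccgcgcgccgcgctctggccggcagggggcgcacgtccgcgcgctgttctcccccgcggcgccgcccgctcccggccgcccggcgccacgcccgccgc
Mt2: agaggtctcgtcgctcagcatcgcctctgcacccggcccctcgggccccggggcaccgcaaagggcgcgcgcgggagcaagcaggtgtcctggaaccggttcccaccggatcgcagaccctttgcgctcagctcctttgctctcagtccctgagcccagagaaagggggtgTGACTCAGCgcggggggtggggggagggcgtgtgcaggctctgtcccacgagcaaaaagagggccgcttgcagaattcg
Nfe2l2: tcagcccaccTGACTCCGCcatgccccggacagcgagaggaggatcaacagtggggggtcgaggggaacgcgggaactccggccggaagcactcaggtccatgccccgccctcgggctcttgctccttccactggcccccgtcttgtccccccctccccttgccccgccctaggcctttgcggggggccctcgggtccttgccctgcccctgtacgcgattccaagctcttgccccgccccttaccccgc
They lie at chr4:116685349-116685598, chr3:122245307-122245556 and chr8:94172368-94172617 on the plus strand and chr2:75704664-75704913 on the minus strand. Of 28 genes on the NRF2 list 23 had a promoter and 7 of these held a match, and of the 9 that rose on day 21 7 had a promoter and 5 held one. The share over all promoters was 10.2% (3338 of 32851). A match describes letters only.

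Across the transcriptome 1808 of 15764 tested genes were higher in day 21 glands (11.5%) and 1193 were lower (7.57%), by limma with Benjamini-Hochberg adjustment at 0.05, the rule behind every "rose" and "fell" below. A change of at least 2-fold was met by 1493 and 1040 of them. On the deposited scale 1096 of 15548 genes rose (7.05%) and 2563 fell (16.5%), and 1095 rises and 1193 falls were called on both scales with none in opposite directions. The count depended on single mice. It was 655 higher and 183 lower without day 21 mouse 2, 667 and 172 without day 21 mouse 3, 1037 and 272 without non-lactating mouse 2, and 2510 and 1755 without non-lactating mouse 3. Without non-lactating mice 2 and 3 together, 1924 genes rose and 959 fell, of which 1309 and 671 were called in both fits among 14986 genes tested in both. The genes did not overlap between the groups in 6130 of 15764 cases (38.9%).

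**Figure D1:**
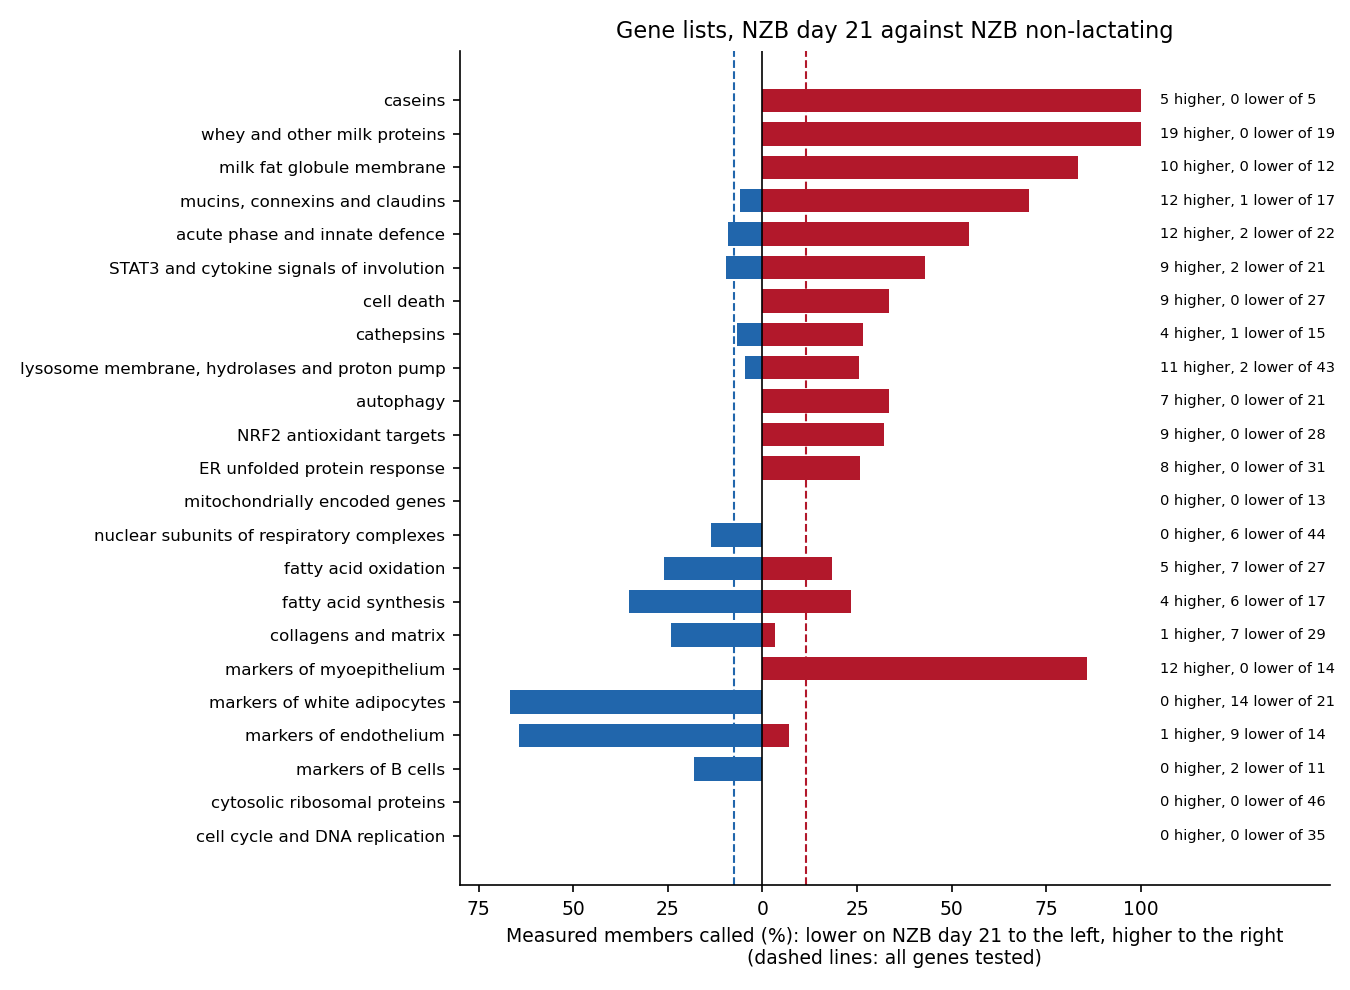
Share of the measured genes of each of 23 lists that were lower (blue, to the left) or higher (red, to the right) in NZB day 21 than in NZB non-lactating glands, in percent, non-milk scale, limma adjusted p under 0.05. The dashed lines give the share over all tested genes (7.57% lower, 11.5% higher). Caseins and whey proteins reach 100% on the right, and white adipocyte and endothelial markers reach furthest to the left.

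Milk protein genes were higher in every day 21 gland than in any non-lactating gland for all 5 caseins and for the 19 measured whey and other milk proteins, and all 24 rose, against 11.5% of all genes. The caseins had a median log2 fold change of 4.22 and the whey list of 4.96. Csn2, which encodes beta casein, stood at 160558, 58093 and 76774 in day 21 glands, against 7008, 3087 and 5122 in non-lactating glands (log2 fold change 4.22 ± 0.78, adjusted p = 0.011, where ± is the standard error and the fold is on the scale log2(CPM + 1)). Day 21 mouse 1 was the highest. Csn1s1, alpha casein, stood at 111973, 60780 and 92577 in day 21 glands, against 3884, 1875 and 2793 in non-lactating glands (log2 fold change 4.97 ± 0.66, adjusted p = 0.003). Csn3, the kappa casein that keeps micelles in solution, stood at 41060, 22965 and 29307 in day 21 glands, against 1188, 618 and 928 in non-lactating glands (log2 fold change 5.1 ± 0.47, adjusted p = 0.00072). Among whey proteins, Wap, the whey acidic protein, stood at 32045, 22148 and 59006 in day 21 glands, against 2591, 1041 and 1861 in non-lactating glands (log2 fold change 4.34 ± 0.61, adjusted p = 0.0037), and here day 21 mouse 3 was the highest. Lalba, which turns a galactosyltransferase into lactose synthase, stood at 1007, 649 and 763 in day 21 glands, against 34.7, 13.7 and 22 in non-lactating glands (log2 fold change 5.11 ± 0.34, adjusted p = 0.00018). Glycam1, a mucin-like milk protein, stood at 11394, 4448 and 7823 in day 21 glands, against 141, 218 and 694 in non-lactating glands (log2 fold change 4.72 ± 0.62, adjusted p = 0.003), with the non-lactating mice spread widely. Csn1s1, Csn1s2a and Csn2 were not called when non-lactating mice 2 and 3 were left out (2 of 5 caseins and 17 of 19 whey genes rose), a fit with 1 non-lactating mouse, and Csn2 was lost without non-lactating mouse 2 alone.

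The largest rises among the listed milk proteins were in Ltf, Lcn2 and Wfdc18. Ltf, lactoferrin, an iron-binding protein of milk and of the involuting gland, stood at 8482, 11340 and 15685 in day 21 glands, against 22.9, 34.9 and 19.7 in non-lactating glands (log2 fold change 8.78 ± 0.32, adjusted p = 2.1e-05). Lcn2, lipocalin, which sequesters bacterial siderophores, stood at 5611, 5464 and 8080 in day 21 glands, against 31.5, 42.7 and 18 in non-lactating glands (log2 fold change 7.71 ± 0.34, adjusted p = 5.3e-05). Wfdc18, a small protein with a whey acidic protein domain, stood at 1751, 2576 and 4853 in day 21 glands, against 20.8, 10.8 and 13.9 in non-lactating glands (log2 fold change 7.48 ± 0.4, adjusted p = 8.4e-05). Every day 21 gland was above every non-lactating gland in each of these, and the calls stood in all 6 fits that left out a mouse.

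**Figure D2:**
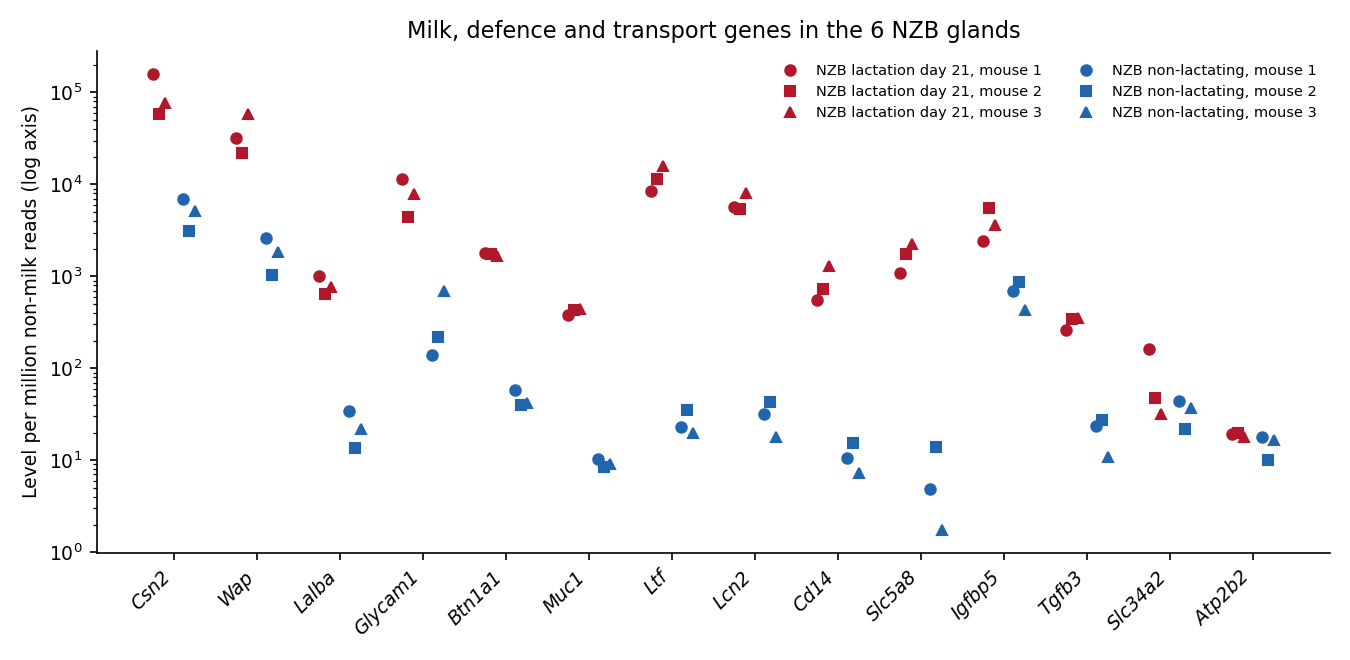
Level of 14 genes in each of the 6 mice, as reads per 1000000 non-milk reads on a log axis. Red marks day 21 and blue marks non-lactating glands, and circle, square and triangle stand for mouse 1, 2 and 3. For Slc34a2 and Atp2b2 the groups overlap, and for the other 12 genes they lie apart.

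Genes of the milk fat globule membrane, which wraps the lipid droplet as it leaves the cell, rose in 10 of 12 measured members and none fell (median 3.59). Btn1a1, butyrophilin, stood at 1800, 1760 and 1679 in day 21 glands, against 58.3, 40.2 and 42.3 in non-lactating glands (log2 fold change 5.21 ± 0.22, adjusted p = 4.4e-05), the mice of a group lying close together. Muc1, a mucin of the apical membrane, stood at 380, 428 and 443 in day 21 glands, against 10.3, 8.44 and 9.21 in non-lactating glands (log2 fold change 5.34 ± 0.19, adjusted p = 1.9e-05). Xdh, xanthine dehydrogenase, the butyrophilin partner, stood at 2668, 2091 and 1905 in day 21 glands, against 363, 299 and 191 in non-lactating glands (log2 fold change 2.99 ± 0.31, adjusted p = 0.0012). Enzymes that make the fat split. Of 17 fatty acid synthesis genes 4 rose and 6 fell (median −1.01; on the deposited scale 2 and 9). Fasn, fatty acid synthase, stood at 5222, 2992 and 2827 in day 21 glands, against 26260, 17967 and 8329 in non-lactating glands (log2 fold change −2.16 ± 0.6, adjusted p = 0.043). Acly, which supplies its acetyl-CoA, fell too (−1.61 ± 0.4, adjusted p = 0.03). Both calls were lost in most fits that left out a mouse, the count of fallers was 0 without day 21 mouse 2, day 21 mouse 3 or non-lactating mouse 2 and 9 without non-lactating mouse 3, and that of risers was 2 without day 21 mouse 2, day 21 mouse 3 or non-lactating mouse 2 and 4 without day 21 mouse 1, non-lactating mouse 1 or non-lactating mouse 3. Olah, the thioesterase that ends synthesis early to give medium-chain milk fat, rose and stood at 113, 53.3 and 31.8 in day 21 glands, against 9.71, 6.16 and 11.5 in non-lactating glands (log2 fold change 2.58 ± 0.46, adjusted p = 0.0094). Fads2, a desaturase, rose as well (2.12 ± 0.3, adjusted p = 0.0041). Of triglyceride assembly genes 2 of 17 rose, near the 11.5% of all genes, and 6 fell, beside 7.57% of all genes. Among the fallers was Dgat2 (−2.52 ± 0.55, adjusted p = 0.019), which adds the last fatty acid. The fallers of that list were 0 without day 21 mouse 2, day 21 mouse 3 or non-lactating mouse 2 and 9 without non-lactating mouse 3. In cholesterol synthesis 1 of 24 genes rose and 4 fell, among them Idi1, an isomerase of the isoprenoid pathway (−1.29 ± 0.26, adjusted p = 0.015), and the fallers were 0 without day 21 mouse 2, day 21 mouse 3 or non-lactating mouse 2 and 5 without non-lactating mouse 3. Of these genes 0 rose and 7 fell on the deposited scale, and 0 rose and 4 fell without non-lactating mice 2 and 3.

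In lactose synthesis and glucose entry 4 of 15 genes rose and 3 fell. The galactosyltransferase B4galt1 stood at 636, 818 and 772 in day 21 glands, against 142, 145 and 156 in non-lactating glands (log2 fold change 2.31 ± 0.2, adjusted p = 0.00059). Slc2a4, the insulin-responsive glucose transporter of fat, fell (−2.32 ± 0.45, adjusted p = 0.012). Slc2a1, the transporter of secretory cells, rose (1.62 ± 0.31, adjusted p = 0.013). The fallers of this list were 0 without day 21 mouse 2 or day 21 mouse 3 and 3 without non-lactating mouse 1 or non-lactating mouse 3. Among 18 measured genes of mineral transport 7 rose and 1 fell, Stim1, which gates the channel Orai1 (−1.26 ± 0.27, adjusted p = 0.018). The fallers were 0 without day 21 mouse 2, day 21 mouse 3 or non-lactating mouse 2 and 3 without non-lactating mouse 3, and 6 rose and 2 fell on the deposited scale. Atp2c2, the calcium pump of the Golgi, stood at 138, 228 and 216 in day 21 glands, against 5.46, 7.34 and 3.63 in non-lactating glands (log2 fold change 4.92 ± 0.3, adjusted p = 0.00011). Orai1, the store-operated calcium channel, rose (2.43 ± 0.29, adjusted p = 0.0022). The metal importer Slc39a8 stood at 1124, 1661 and 2972 in day 21 glands, against 26.9, 21.4 and 20.2 in non-lactating glands (log2 fold change 6.23 ± 0.35, adjusted p = 8.6e-05). The main carriers that put phosphate and calcium into milk were not called. Slc34a2, the phosphate transporter, stood at 164, 47.8 and 32.1 in day 21 glands, against 43.8, 22.1 and 37 in non-lactating glands (log2 fold change 0.92 ± 0.57, adjusted p = 0.3), and the groups overlapped. Atp2b2, the apical calcium pump, stood at 19.2, 19.9 and 17.7 in day 21 glands, against 17.8, 10.1 and 16.6 in non-lactating glands (log2 fold change 0.37 ± 0.28, adjusted p = 0.4), and here too the groups overlapped. Of 15 amino acid transporters 4 rose, Slc7a5 (4.81 ± 0.37, adjusted p = 0.00034), which imports large neutral amino acids, and Slc15a2 (3.88 ± 0.38, adjusted p = 0.00094), which imports peptides, among them. Another 2 fell, led by the glutamine carrier Slc1a5 (−3.0 ± 0.52, adjusted p = 0.0085), and the fallers were 0 without day 21 mouse 3 and 3 without day 21 mouse 1 or non-lactating mouse 1.

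Upstream of these genes, Elf5, the transcription factor of secretory luminal cells, stood at 584, 713 and 776 in day 21 glands, against 21.3, 29.2 and 20.9 in non-lactating glands (log2 fold change 4.81 ± 0.22, adjusted p = 5.5e-05). Tnfrsf11a, the RANK receptor, rose (2.69 ± 0.33, adjusted p = 0.0024). The prolactin receptor gene Prlr stood at 402, 334 and 266 in day 21 glands, against 226, 667 and 90.9 in non-lactating glands (log2 fold change 0.46 ± 0.63, adjusted p = 0.66), with non-lactating mouse 2 the highest of the 6. In all 4 of 14 genes of the prolactin circuit rose and 0 fell (2 and 2 on the deposited scale), and the risers were 2 without day 21 mouse 2 or day 21 mouse 3 and 6 without non-lactating mouse 3.

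Markers of secretory, myoepithelial, fat, stromal and vessel cells were read in all 6 glands. In whole glands fewer cells of a type and less RNA per cell cannot be told apart. Of 16 luminal secretory markers 12 rose and none fell. Their summed level was 169924.3, 66759.4 and 86459.2 in day 21 glands, against 7543.3, 3974.3 and 5596.0 in non-lactating glands. Outside the milk genes of that list, the keratin Krt8 (4.53 ± 0.71, adjusted p = 0.006) and the adhesion gene Epcam (4.14 ± 0.54, adjusted p = 0.0028) rose. The groups overlapped for other members, the keratins Krt7 and Krt19 as well as Kit and Aldh1a3. In deposited CPM Krt7 stood at 26.39, 38.21 and 33.55 in day 21 glands, against 16.47, 46.22 and 13.4 in non-lactating glands. Krt19 stood at 88.69, 80.53 and 51.27, against 16.66, 75.43 and 4.89. Of 14 myoepithelial markers 12 rose. Their summed levels were 2496.1, 2502.9 and 1704.6 in day 21 glands, against 525.6, 619.1 and 373.0 in non-lactating glands. Acta2, smooth muscle actin, stood at 476, 594 and 432 in day 21 glands, against 67.8, 91.1 and 26.7 in non-lactating glands (log2 fold change 3.15 ± 0.42, adjusted p = 0.0032). Krt14, a basal keratin, stood at 60.3, 46.4 and 43.3 in day 21 glands, against 3.00, 7.99 and 1.02 in non-lactating glands (log2 fold change 3.6 ± 0.51, adjusted p = 0.0039). Of 11 markers of hormone-sensing epithelium 3 rose, and the receptors Esr1 (−0.56 ± 0.36, adjusted p = 0.32) and Pgr (−0.49 ± 0.83, adjusted p = 0.73) did not pass. The risers of that list were 1 without day 21 mouse 2 and 3 without non-lactating mouse 2 or non-lactating mouse 3, and the fallers 0 without day 21 mouse 1, day 21 mouse 2, day 21 mouse 3, non-lactating mouse 1 or non-lactating mouse 2 and 3 without non-lactating mouse 3.

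Markers of the stroma were lower. White adipocyte markers fell in 14 of 21 measured genes, against 7.57% of all genes, with a median of −2.0. Their sums were 9097.5, 3359.9 and 3790.5 in day 21 glands, against 25833.0, 20339.9 and 9300.3 in non-lactating glands. Day 21 mouse 1 (9097.5) and non-lactating mouse 3 (9300.3) nearly met. Adrb3, the beta adrenergic receptor of fat cells, stood at 88.6, 33.4 and 21.7 in day 21 glands, against 676, 486 and 250 in non-lactating glands (log2 fold change −3.4 ± 0.54, adjusted p = 0.0063). Plin1, which coats fat cell droplets, stood at 354, 111 and 94.6 in day 21 glands, against 1324, 1057 and 515 in non-lactating glands (log2 fold change −2.52 ± 0.55, adjusted p = 0.019). Adipoq, adiponectin, stood at 343, 67.3 and 87.6 in day 21 glands, against 861, 682 and 295 in non-lactating glands and did not pass (log2 fold change −2.13 ± 0.64, adjusted p = 0.055). Endothelial markers fell in 9 of 14, Robo4 (−2.43 ± 0.31, adjusted p = 0.0026) and the VEGF receptor Kdr (−2.06 ± 0.4, adjusted p = 0.012) among them. Prox1, a factor of lymphatic endothelium and of some epithelia, rose against the list (3.69 ± 0.47, adjusted p = 0.0026). Fibroblast markers fell in 6 of 16. Gsn, gelsolin, fell most (−2.69 ± 0.57, adjusted p = 0.018). These counts rest on few mice. The adipocyte count was 1 without day 21 mouse 2 or day 21 mouse 3 and 21 without non-lactating mouse 3, and 0 rose and 21 fell on the deposited scale, and 0 rose and 18 fell without non-lactating mice 2 and 3. The endothelial count was 2 without day 21 mouse 2 or day 21 mouse 3 and 11 without non-lactating mouse 3. The fibroblast count was 0 without day 21 mouse 2 or day 21 mouse 3 and 8 without non-lactating mouse 3. The myoepithelial count was 8 without day 21 mouse 2 and 13 without non-lactating mouse 3.

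**Figure D3:**
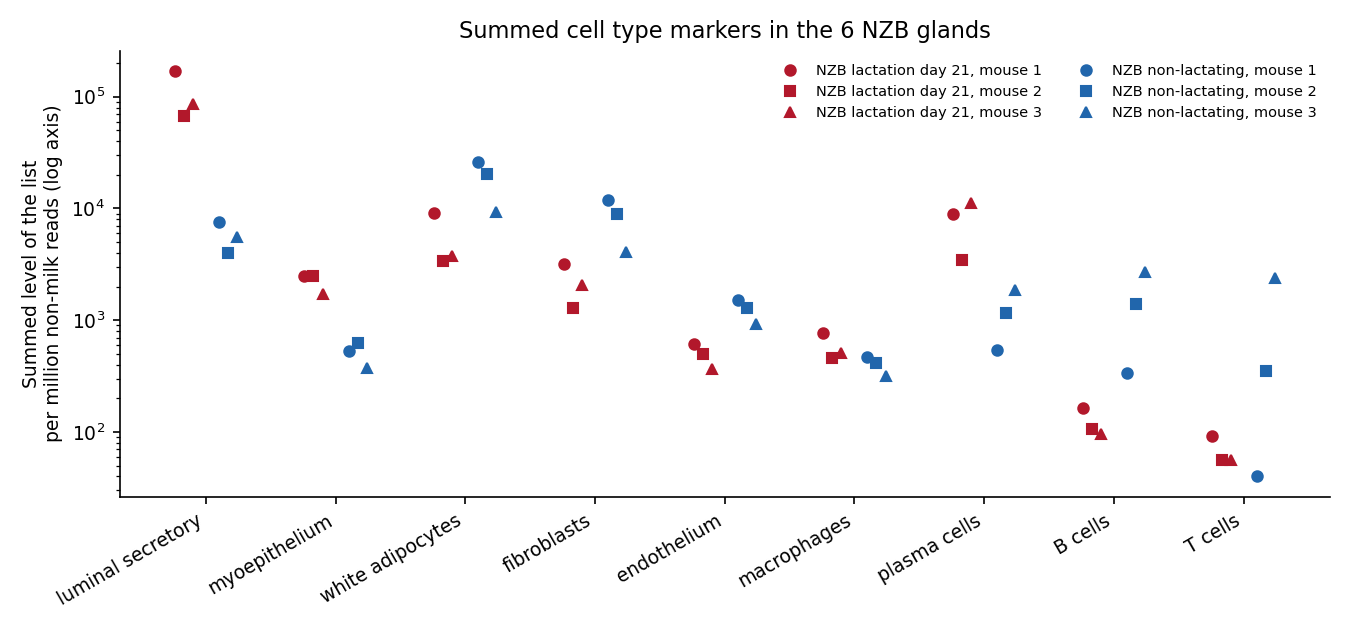
Summed level of 9 cell type marker lists in each of the 6 mice, in reads per 1000000 non-milk reads on a log axis; red marks day 21 and blue non-lactating glands, and the shape gives the mouse. Luminal and myoepithelial sums are higher in all 3 day 21 glands, adipocyte, fibroblast and endothelial sums are lower, and the B and T cell sums of non-lactating mice 2 and 3 stand above the rest.

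Involution signals were partly up. In the list of STAT3 and cytokine signals 9 of 21 genes rose and 2 fell (median 0.81), and the risers numbered 6 without day 21 mouse 2 or day 21 mouse 3 and 11 without non-lactating mouse 3. Stat3 itself stood at 377, 447 and 404 in day 21 glands, against 112, 143 and 163 in non-lactating glands (log2 fold change 1.56 ± 0.21, adjusted p = 0.0034). Osmr, a receptor of oncostatin M upstream of STAT3, stood at 302, 308 and 218 in day 21 glands, against 82.4, 96.1 and 66.6 in non-lactating glands (log2 fold change 1.74 ± 0.23, adjusted p = 0.0031). Cebpd, a STAT3 target that drives death genes, rose (2.63 ± 0.28, adjusted p = 0.0013). Socs3, the feedback inhibitor of STAT3, stood at 21.8, 45.7 and 52.6 in day 21 glands, against 13.1, 27.6 and 26.3 in non-lactating glands and did not pass (log2 fold change 0.79 ± 0.41, adjusted p = 0.22). The members that fell were Irf1 (−1.67 ± 0.38, adjusted p = 0.022) and the interleukin 1 receptor Il1r1 (−0.99 ± 0.26, adjusted p = 0.036), and the fallers were 0 without day 21 mouse 2, day 21 mouse 3 or non-lactating mouse 2 and 2 without day 21 mouse 1, non-lactating mouse 1 or non-lactating mouse 3. Of the list 7 rose and 2 fell on the deposited scale, and 10 rose and 0 fell without non-lactating mice 2 and 3.

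The acute phase and innate defence list rose in 12 of 22 genes and fell in 2 (median 1.71). The risers numbered 7 without day 21 mouse 2 or day 21 mouse 3 and 12 without non-lactating mouse 1 or non-lactating mouse 3, and the fallers 0 without day 21 mouse 2, day 21 mouse 3 or non-lactating mouse 2 and 5 without non-lactating mouse 3. Of the list 12 rose and 5 fell on the deposited scale, and 10 rose and 1 fell without non-lactating mice 2 and 3. Cd14, the lipopolysaccharide co-receptor, stood at 559, 736 and 1305 in day 21 glands, against 10.7, 15.5 and 7.26 in non-lactating glands (log2 fold change 6.12 ± 0.37, adjusted p = 0.00011). Lbp, the protein that hands lipopolysaccharide to it, stood at 470, 562 and 516 in day 21 glands, against 37.8, 35.1 and 29.3 in non-lactating glands (log2 fold change 3.89 ± 0.19, adjusted p = 6.8e-05). Cp, the copper oxidase ceruloplasmin, stood at 1185, 1727 and 3040 in day 21 glands, against 178, 164 and 83.2 in non-lactating glands (log2 fold change 3.76 ± 0.42, adjusted p = 0.0017). Saa1, serum amyloid A, stood at 4.61, 6.40 and 4.48 in day 21 glands, against 0, 0 and 0 in non-lactating glands, at least 60.2-fold higher against a floor of 3 counts over the non-lactating group. The members that fell were Steap4 (−1.56 ± 0.42, adjusted p = 0.039) and complement factor Cfb (−1.47 ± 0.35, adjusted p = 0.026).

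On the TGF beta and IGF axis 7 of 18 genes rose and 5 fell. The ligand Tgfb3, which is induced early in involution in mice, stood at 262, 346 and 354 in day 21 glands, against 23.6, 27.2 and 10.9 in non-lactating glands (log2 fold change 3.98 ± 0.34, adjusted p = 0.00052). Tgfb2 stood at 82.5, 153 and 172 in day 21 glands, against 3.95, 5.30 and 4.70 in non-lactating glands (log2 fold change 4.54 ± 0.31, adjusted p = 0.00019). Igfbp5, which sequesters the survival factor IGF1, stood at 2407, 5475 and 3583 in day 21 glands, against 690, 870 and 435 in non-lactating glands (log2 fold change 2.5 ± 0.41, adjusted p = 0.0071), with day 21 mouse 2 the highest. Those that fell were Igf1 itself (−1.91 ± 0.42, adjusted p = 0.019), Igfbp3, Igfbp4, Igfbp7 and the growth factor Fgf10 (−2.52 ± 0.5, adjusted p = 0.014), and Igf1 was lost in 3 of the 6 fits that left out a mouse. Over the list, the risers were 4 without day 21 mouse 2, day 21 mouse 3 or non-lactating mouse 2 and 8 without non-lactating mouse 3, and the fallers 0 without day 21 mouse 3 and 6 without non-lactating mouse 1. Cell death genes rose in 9 of 27 and none fell (5 and 2 on the deposited scale), and the count was 4 without day 21 mouse 2, day 21 mouse 3 or non-lactating mouse 2 and 11 without non-lactating mouse 3. They act in both directions: Bmf, a BH3 protein that promotes death (1.56 ± 0.25, adjusted p = 0.0061), and Bcl2l1, which encodes the survival protein BCL-XL (1.41 ± 0.24, adjusted p = 0.0076). Cdkn1a, the cell cycle inhibitor p21, stood at 52.4, 94.4 and 145 in day 21 glands, against 14.8, 13.7 and 18 in non-lactating glands (log2 fold change 2.46 ± 0.36, adjusted p = 0.0045).

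Lysosomal genes were higher in part. Of 43 genes of lysosomal membrane, hydrolases and proton pump 11 rose and 2 fell, and on the deposited scale 4 rose and 4 fell. The count of risers was 2 without day 21 mouse 2 or day 21 mouse 3 and 14 without non-lactating mouse 3, and 7 rose and 1 fell without non-lactating mice 2 and 3. Lipa, the acid lipase that empties lipid from lysosomes, stood at 713, 684 and 562 in day 21 glands, against 70, 66.8 and 68.4 in non-lactating glands (log2 fold change 3.23 ± 0.19, adjusted p = 9.3e-05), almost the same in the mice of a group. Ctsl, cathepsin L, stood at 498, 652 and 890 in day 21 glands, against 79.6, 68 and 39.1 in non-lactating glands (log2 fold change 3.45 ± 0.33, adjusted p = 0.00085), and 4 of 15 members of the cathepsin list rose and 1 fell, with risers of 1 without day 21 mouse 2 or day 21 mouse 3 and 7 without non-lactating mouse 3. Of that list 2 rose and 2 fell on the deposited scale, and 6 rose and 0 fell without non-lactating mice 2 and 3. Ctsb, cathepsin B, a lysosomal protease of the involuting gland, stood at 2366, 2375 and 2813 in day 21 glands, against 1300, 1051 and 590 in non-lactating glands (log2 fold change 1.43 ± 0.36, adjusted p = 0.031) and was called in 2 of the 6 fits that left out a mouse. In autophagy 7 of 21 genes rose and none fell, 3 on the deposited scale, and 1 without day 21 mouse 3 and 9 without non-lactating mouse 1. Wipi1, which binds the growing autophagosome, stood at 199, 169 and 205 in day 21 glands, against 54.8, 47.6 and 29.1 in non-lactating glands (log2 fold change 2.14 ± 0.26, adjusted p = 0.0024). Map1lc3b, LC3, rose (1.5 ± 0.25, adjusted p = 0.0073).

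Matrix genes moved in both directions. Of 21 proteases and inhibitors 4 rose and 4 fell, and the fallers were 0 without day 21 mouse 2 or day 21 mouse 3 and 6 without non-lactating mouse 3. Mmp3, stromelysin, stood at 65.5, 72 and 115 in day 21 glands, against 13.7, 14.8 and 4.71 in non-lactating glands (log2 fold change 2.91 ± 0.43, adjusted p = 0.0045). The inhibitor Timp1 rose too (2.28 ± 0.34, adjusted p = 0.0047). In a list of collagens and other matrix proteins 7 of 29 genes fell and 1 rose, with a median of −1.2, and 17 fell on the deposited scale. The fallers were 0 without day 21 mouse 2, day 21 mouse 3 or non-lactating mouse 2 and 19 without non-lactating mouse 3, and 0 rose and 17 fell without non-lactating mice 2 and 3. Col1a1 stood at 622, 279 and 445 in day 21 glands, against 3002, 2081 and 804 in non-lactating glands (log2 fold change −2.01 ± 0.52, adjusted p = 0.034), day 21 mouse 1 and non-lactating mouse 3 being closest. Of 17 measured mucins, connexins and claudins of the epithelial surface 12 rose, and the one that fell was Cldn5, a claudin of vessels (−2.15 ± 0.49, adjusted p = 0.022). Of these genes 12 rose and 2 fell on the deposited scale, and 12 rose and 2 fell without non-lactating mice 2 and 3. Cldn1, a tight junction claudin, stood at 303, 144 and 228 in day 21 glands, against 2.12, 4.24 and 5.83 in non-lactating glands (log2 fold change 5.49 ± 0.38, adjusted p = 0.00019). Gjb2, connexin 26, which couples luminal cells, stood at 88.9, 558 and 550 in day 21 glands, against 1.40, 1.47 and 1.74 in non-lactating glands (log2 fold change 6.9 ± 0.66, adjusted p = 0.00085), with day 21 mouse 1 well below mice 2 and 3. Muc4, a membrane mucin, had the reverse order, at 696, 151 and 86 in day 21 glands, against 1.29, 1.83 and 1.43 in non-lactating glands (log2 fold change 6.38 ± 0.68, adjusted p = 0.0013).

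Of the 13 mitochondrially encoded genes 0 passed in either direction by limma, 2 had an unadjusted p under 0.05, and 0 passed by limma voom on whole reads (median −0.27), and their share of all reads was 6.45%, 5.33% and 4.26% in day 21 glands, against 10.20%, 10.10% and 5.54% in non-lactating glands. These shares count milk reads in the total, and on the deposited scale 2 of 13 fell. Of 44 nuclear subunits of the respiratory complexes 6 fell and none rose (median −0.53). That count was 0 without day 21 mouse 2, day 21 mouse 3 or non-lactating mouse 2 and 26 without non-lactating mouse 3, and 20 on the deposited scale, and 0 rose and 13 fell without non-lactating mice 2 and 3. Sdha, of complex II, stood at 114, 89.4 and 101 in day 21 glands, against 294, 245 and 158 in non-lactating glands (log2 fold change −1.15 ± 0.26, adjusted p = 0.023). Ppargc1a, the coactivator of mitochondrial biogenesis, stood at 5.79, 3.67 and 2.79 in day 21 glands, against 29.5, 27.9 and 21 in non-lactating glands (log2 fold change −2.44 ± 0.31, adjusted p = 0.0026). Its call stood in all 6 fits that left out a mouse. In fatty acid oxidation 5 of 27 genes rose and 7 fell, and on the deposited scale 2 rose and 15 fell. The fallers were 1 without day 21 mouse 2, day 21 mouse 3 or non-lactating mouse 2 and 14 without non-lactating mouse 3, the risers 2 without day 21 mouse 2, day 21 mouse 3 or non-lactating mouse 2 and 5 without non-lactating mouse 3, and 2 rose and 9 fell without non-lactating mice 2 and 3. With all 6 mice, fallers of this list outnumbered risers on both scales, although the 2 genes given next rose. Pdk4, the kinase that shuts pyruvate out of the citric acid cycle, stood at 379, 845 and 1133 in day 21 glands, against 68.3, 126 and 66.4 in non-lactating glands (log2 fold change 3.09 ± 0.44, adjusted p = 0.0039). The mitochondrial carrier Ucp3 stood at 191, 340 and 254 in day 21 glands, against 44.8, 36.4 and 23.7 in non-lactating glands (log2 fold change 2.88 ± 0.31, adjusted p = 0.0013). Of the mitochondrial chaperones, proteases and import genes 2 of 28 rose and 1 fell, and of 16 fusion, fission and mitophagy genes only the fusion GTPase Mfn1 rose (1.11 ± 0.21, adjusted p = 0.011) and none fell. Both lists were below the shares of all genes, 11.5% higher and 7.57% lower. Of the chaperone list 1 rose and 4 fell on the deposited scale, and of the fusion list 0 rose and 2 fell on the deposited scale. Mfn1 was not called on the deposited scale, nor without day 21 mouse 2 or day 21 mouse 3.

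Antioxidant genes rose in part. Of 28 NRF2 targets 9 rose and none fell on the non-milk scale (median 0.68), and on the deposited scale 9 rose and 3 fell. The risers numbered 6 without day 21 mouse 2 or day 21 mouse 3 and 11 without non-lactating mouse 1, the fallers 0 without day 21 mouse 2, day 21 mouse 3, non-lactating mouse 1 or non-lactating mouse 2 and 4 without non-lactating mouse 3, and 6 rose and 2 fell without non-lactating mice 2 and 3. Hmox1, haem oxygenase, stood at 188, 244 and 589 in day 21 glands, against 40, 34.8 and 20.2 in non-lactating glands (log2 fold change 3.26 ± 0.45, adjusted p = 0.0034). Prdx1, a peroxiredoxin, stood at 426, 858 and 1312 in day 21 glands, against 155, 156 and 94.1 in non-lactating glands (log2 fold change 2.56 ± 0.42, adjusted p = 0.007). Gclm, which limits glutathione synthesis, stood at 90, 211 and 382 in day 21 glands, against 43.9, 44.6 and 28.7 in non-lactating glands (log2 fold change 2.31 ± 0.49, adjusted p = 0.017). In these 3 genes the day 21 mice stood in the same order, mouse 1 lowest and mouse 3 highest. Nfe2l2, which encodes NRF2, rose (1.65 ± 0.28, adjusted p = 0.0075), as did the metallothionein Mt2 (4.05 ± 0.3, adjusted p = 0.00026). These with Prdx1 and Gclm have the promoters printed above.

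Genes of the secretory organelles rose in part, beside rises in 11.5% of all genes on the non-milk scale and 7.05% on the deposited scale. In the unfolded protein response 8 of 31 genes rose and none fell (4 and 2 on the deposited scale, 4 without day 21 mouse 1, day 21 mouse 2, day 21 mouse 3, non-lactating mouse 1 or non-lactating mouse 2 and 10 without non-lactating mouse 3). Of that list 7 rose and 1 fell without non-lactating mice 2 and 3. Xbp1, the factor spliced by IRE1, stood at 921, 1282 and 1015 in day 21 glands, against 205, 192 and 127 in non-lactating glands (log2 fold change 2.63 ± 0.27, adjusted p = 0.0011). Dnajb9, its chaperone target, rose (1.78 ± 0.22, adjusted p = 0.0023). Hspa5, BiP, stood at 148, 132 and 117 in day 21 glands, against 81.6, 81.9 and 89.7 in non-lactating glands (log2 fold change 0.63 ± 0.19, adjusted p = 0.05) and kept its call in 1 of the 6 fits that left out a mouse. In Golgi trafficking 6 of 35 genes rose, which is not far from the 11.5% of all genes. The risers were 1 without day 21 mouse 2, day 21 mouse 3 or non-lactating mouse 2 and 8 without non-lactating mouse 3. On the deposited scale 1 rose and 2 fell, beside 7.05% and 16.5% of all genes. Of that list 2 rose and 0 fell without non-lactating mice 2 and 3. Of its genes Rab1a, a GTPase of traffic to the Golgi, kept its call in all 6 such fits (1.53 ± 0.24, adjusted p = 0.0055). In the integrated stress response 5 of 21 rose and 2 fell (2 and 5 on the deposited scale), the risers were 0 without day 21 mouse 2 or day 21 mouse 3 and 7 without non-lactating mouse 1, and 3 rose and 3 fell without non-lactating mice 2 and 3. A list of genes that respond to heat and to handling of tissue moved as well: 8 of 12 rose, and the summed level was 757.7, 1203.2 and 1667.3 in day 21 glands, against 374.6, 463.3 and 433.8 in non-lactating glands. Hspa1b, an inducible HSP70, stood at 85.7, 187 and 316 in day 21 glands, against 10.8, 21.9 and 5.68 in non-lactating glands (log2 fold change 3.83 ± 0.56, adjusted p = 0.0046). Its order over the day 21 mice was that of Hmox1, Prdx1 and Gclm, and the part of handling in the stress lists was not tested. The risers of the handling list were 2 without day 21 mouse 2 or day 21 mouse 3 and 9 without non-lactating mouse 3, and 5 rose and 2 fell on the deposited scale, and 7 rose and 0 fell without non-lactating mice 2 and 3. Of 46 measured ribosomal protein genes 0 passed by limma or limma voom, 3 with an unadjusted p under 0.05, and of 35 cell cycle genes 0 passed by either, 1 with an unadjusted p under 0.05. Of the ribosomal list 0 rose and 2 fell on the deposited scale, and 4 rose and 0 fell without non-lactating mice 2 and 3, and of the cell cycle list 0 rose and 1 fell on the deposited scale.

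**Figure D4:**
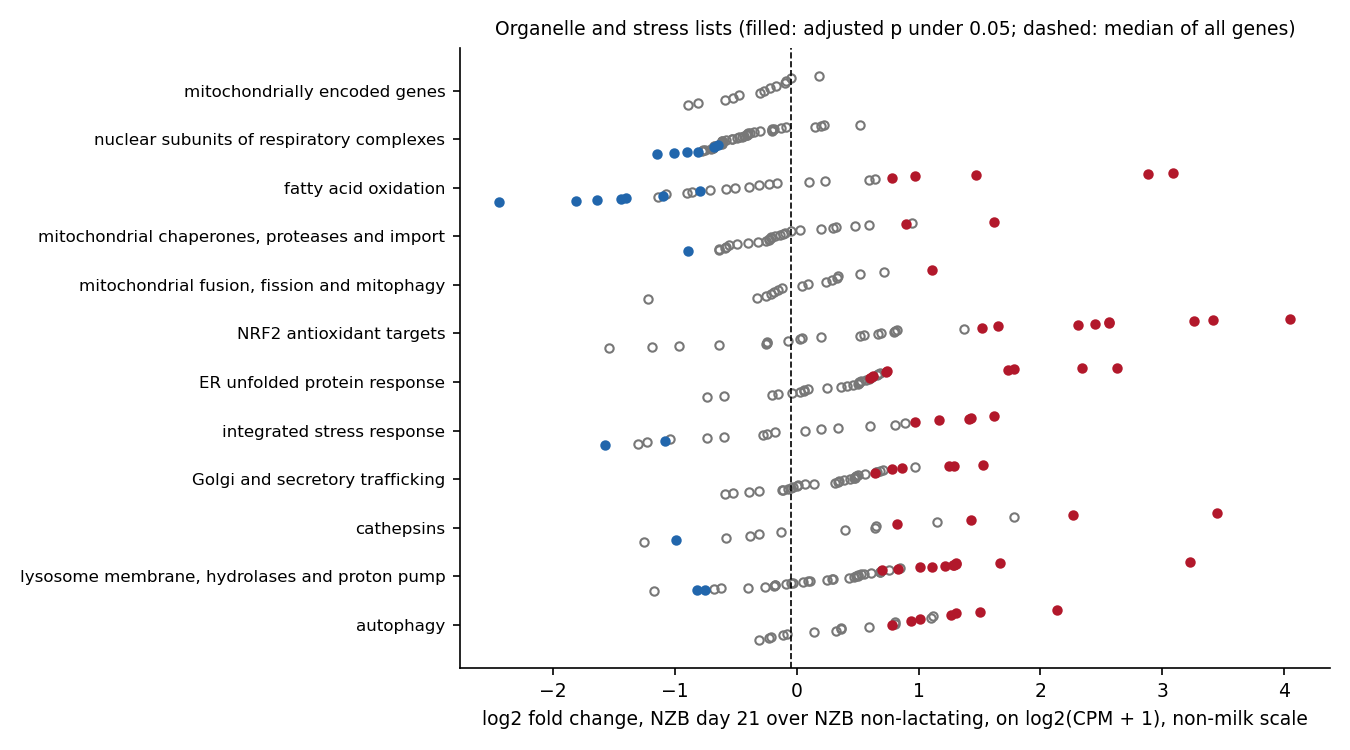
Log2 fold change, NZB day 21 against NZB non-lactating glands on the non-milk scale, of each measured gene of 12 organelle and stress lists; filled points have a limma adjusted p under 0.05. The dashed line is the median of all genes at −0.05. The NRF2, unfolded protein response, Golgi, autophagy and mitochondrial fusion lists have filled points only to the right. The respiratory complex list has them only to the left.

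Of 12 genes of antibody transport into milk 6 rose and 2 fell, the fallers were 0 without day 21 mouse 1, day 21 mouse 2, day 21 mouse 3 or non-lactating mouse 2 and 2 without non-lactating mouse 3, and 8 rose and 0 fell without non-lactating mice 2 and 3. Pigr, the receptor that carries dimeric IgA across the epithelium, stood at 1500, 880 and 988 in day 21 glands, against 26.9, 13 and 21.9 in non-lactating glands (log2 fold change 5.72 ± 0.32, adjusted p = 8.6e-05). Igha, the IgA heavy chain, stood at 4026, 1078 and 5587 in day 21 glands, against 61.7, 144 and 261 in non-lactating glands (log2 fold change 4.44 ± 0.7, adjusted p = 0.0061). Jchain, which joins IgA, stood at 1243, 349 and 1637 in day 21 glands, against 16, 24.7 and 47.7 in non-lactating glands (log2 fold change 5.01 ± 0.61, adjusted p = 0.0023), with day 21 mouse 2 the lowest of its group. Ighm, the IgM chain of naive B cells, fell (−3.13 ± 0.87, adjusted p = 0.042), at 64.2, 24.9 and 28.1 in day 21 glands, against 72.8, 453 and 984 in non-lactating glands, and the 2 high libraries were those rich in lymphocyte transcripts. B cell markers had a median of −3.08, which was 0.41 without non-lactating mice 2 and 3, and T cell markers had −1.91, which was 0.67 without them. In the T cell list 0 of 13 passed by limma or limma voom, 3 had an unadjusted p under 0.05, and 12 fell without non-lactating mouse 1. In the B cell list 2 of 11 fell, and 10 without that mouse, and 0 rose and 5 fell on the deposited scale, and 0 rose and 1 fell without non-lactating mice 2 and 3. Macrophage markers rose in 2 of 17 and fell in 1, near the shares of all genes (11.5% higher and 7.57% lower). The sums were 767.6, 461.3 and 511.0 in day 21 glands, against 471.7, 414.2 and 314.2 in non-lactating glands, which overlap. The risers of that list were 0 without day 21 mouse 2, day 21 mouse 3 or non-lactating mouse 2 and 3 without non-lactating mouse 1, and 0 rose and 1 fell on the deposited scale, and 1 rose and 0 fell without non-lactating mice 2 and 3. Interferon-stimulated genes rose in 2 and fell in 2 of 30, no more than the 11.5% and 7.57% of all genes. The risers of this list were 1 without day 21 mouse 1, day 21 mouse 2, day 21 mouse 3 or non-lactating mouse 2 and 3 without non-lactating mouse 3, the fallers 0 without day 21 mouse 2, day 21 mouse 3 or non-lactating mouse 2 and 4 without day 21 mouse 1, and 1 rose and 5 fell on the deposited scale, and 4 rose and 1 fell without non-lactating mice 2 and 3. Of 26 chemokine genes 6 rose (2 without day 21 mouse 1, day 21 mouse 3 or non-lactating mouse 2 and 7 without non-lactating mouse 3), and 3 rose and 1 fell on the deposited scale. Cxcl14, a chemokine of epithelia, stood at 636, 639 and 284 in day 21 glands, against 36.1, 46.2 and 16.9 in non-lactating glands (log2 fold change 3.95 ± 0.44, adjusted p = 0.0017). Cxcl12, a chemokine of stroma, fell (−1.93 ± 0.28, adjusted p = 0.0045).

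Ranked by size among named genes, the 10 largest rises were Prol1, Ltf, Slc5a8, Lcn2, Cyp24a1, Wfdc18, Clca3a2, Wfdc17, Gjb2 and Muc4. Prol1, which encodes a proline-rich secreted protein, stood at 3626, 2082 and 3079 in day 21 glands, against 6.72, 1.75 and 1.43 in non-lactating glands (log2 fold change 9.58 ± 0.45, adjusted p = 6.1e-05; GRCm38 chr5:88317312-88328814, plus strand). Slc5a8, a sodium-coupled carrier of lactate and other monocarboxylates, stood at 1079, 1753 and 2277 in day 21 glands, against 4.82, 14.1 and 1.74 in non-lactating glands (log2 fold change 8.03 ± 0.58, adjusted p = 0.00025; chr10:88885992-88929515, plus strand). Cyp24a1, the hydroxylase that inactivates vitamin D, stood at 262, 238 and 236 in day 21 glands, against 0.607, 0.245 and 0.102 in non-lactating glands (log2 fold change 7.56 ± 0.25, adjusted p = 1.7e-05; chr2:170482708-170497145, minus strand). The 3 day 21 mice lay within a narrow range for Cyp24a1, and non-lactating values were near the limit of counting. Clca3a2, of a family of chloride channel regulators, stood at 4350, 3509 and 4231 in day 21 glands, against 19.7, 46 and 14.1 in non-lactating glands (log2 fold change 7.36 ± 0.4, adjusted p = 8.6e-05). Wfdc17, a relative of Wfdc18, stood at 111, 339 and 829 in day 21 glands, against 0.759, 1.14 and 1.43 in non-lactating glands (log2 fold change 7.24 ± 0.64, adjusted p = 0.00062), with day 21 mouse 1 lowest.

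The 10 largest falls were Tox2, Nrxn3, Bank1, Fscn1, Ly6d, Adrb3, Nat8l, Nnat, Rhof and Slc28a2. Tox2, an HMG box factor, stood at 4.84, 1.73 and 1.97 in day 21 glands, against 38.7, 104 and 41.9 in non-lactating glands (log2 fold change −3.96 ± 0.46, adjusted p = 0.002; GRCm38 chr2:163203125-163324170, plus strand). Nat8l, which makes N-acetylaspartate and is active in fat cells, stood at 39.1, 11.5 and 10.5 in day 21 glands, against 298, 202 and 104 in non-lactating glands (log2 fold change −3.38 ± 0.55, adjusted p = 0.0068; chr5:33995984-34005916, plus strand). Fscn1, the actin bundler fascin, stood at 17.1, 9.45 and 10.4 in day 21 glands, against 111, 115 and 479 in non-lactating glands (log2 fold change −3.83 ± 0.56, adjusted p = 0.0044), with non-lactating mouse 3 the highest. Bank1, a B cell scaffold, stood at 6.25, 4.83 and 3.99 in day 21 glands, against 12.7, 152 and 311 in non-lactating glands (log2 fold change −3.87 ± 1.0, adjusted p = 0.034); its fold was −1.21 and not called without non-lactating mice 2 and 3. Nrxn3 (−3.92 ± 0.85, adjusted p = 0.019) and Nnat (−3.33 ± 0.71, adjusted p = 0.018) lost their calls without day 21 mouse 2, day 21 mouse 3 or non-lactating mouse 2.

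Day 21 glands were also set against NZB glands of day 14. The milk protein share was 24.87% ± 6.18 on day 21, and 74.60%, 73.46% and 68.07% in the 3 NZB glands of day 14. Of 15355 genes tested 2624 were higher on day 21 than on day 14 (17.1%) and 1029 lower (6.70%), with a median of 0.28. On the deposited scale the median was 1.45 and 13149 of 14208 genes were higher and 149 lower, so a direction in this comparison is relative to the non-milk reads. Without day 14 mouse 2 the non-milk counts were 714 higher and 489 lower, and without day 21 mouse 2 946 and 616. This comparison shares the day 21 glands with the one above. Slc34a2 averaged 34.3 without lactation, 6840 at day 8, 5460 at day 14 and 81.3 at day 21 (day 21 against day 14 log2 fold change −6.33 ± 0.53, adjusted p = 0.00037). Atp2b2 averaged 14.8, 2590, 1480 and 18.9 over the same order (−5.99 ± 0.42, adjusted p = 0.00017). The day 21 mean of Slc34a2 was above the non-lactating one, with day 21 mouse 1 the highest of the 6, and neither gene passed between those groups. Csn2 averaged 5070, 1050000, 923000 and 98500, and its change since day 14 did not pass (−3.35 ± 1.3, adjusted p = 0.088). Other falls since day 14 were Lao1, an L-amino acid oxidase of milk (−5.03 ± 0.46, adjusted p = 0.00047), the casein Csn1s2a (−4.26 ± 0.74, adjusted p = 0.0058), Olah (−4.01 ± 0.41, adjusted p = 0.00071) and Ccl28, the chemokine that draws IgA plasma cells (−4.36 ± 0.47, adjusted p = 0.00082).

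Some genes were higher on day 21 than on day 14, most of them also above non-lactating glands. Slc5a8 averaged 6.88 without lactation, 21 at day 8, 260 at day 14 and 1700 at day 21 (day 21 against day 14 log2 fold change 4.27 ± 1.05, adjusted p = 0.02). Hmox1 averaged 31.7, 13.4, 25.1 and 341 in that order (3.83 ± 0.55, adjusted p = 0.003). Igfbp5 averaged 665, 104, 892 and 3820 (3.51 ± 1.01, adjusted p = 0.034), with its lowest mean on day 8 and its highest on day 21. Cyp2b19, a cytochrome P450 of epithelia, stood at 92.4, 114 and 134 in day 21 glands, against 1.48, 2.32 and 2.25 in non-lactating glands and rose against both non-lactating glands (5.24 ± 0.26, adjusted p = 6.8e-05) and day 14 (4.43 ± 0.54, adjusted p = 0.0015). Cldn1 rose against day 14 as well (4.37 ± 0.59, adjusted p = 0.0023), and so did Akr1b8, an aldo-keto reductase (3.98 ± 0.78, adjusted p = 0.0094). Cyp2d10, a cytochrome P450, rose since day 14 (4.11 ± 0.82, adjusted p = 0.01) and stood at 24.2, 53.3 and 60.9 in day 21 glands, against 0.038, 0.0408 and 0.051 in non-lactating glands. Dmkn, dermokine, stood at 43, 54.4 and 72.9 in day 21 glands, against 0, 0 and 0.102 in non-lactating glands. Nkain1 (3.85 ± 0.32, adjusted p = 0.00038) and the major urinary protein gene Mup11 (3.85 ± 0.86, adjusted p = 0.014) rose since day 14 and were not called against non-lactating glands. In deposited CPM Mup11 stood at 89.1, 22.31 and 14.16 in day 21 glands, against 134.73, 102.7 and 51.85 in non-lactating glands. It belongs to a family of near-identical copies, among which reads can be split.

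Lists differed between day 21 and day 14. Adipocyte markers were higher on day 21 than on day 14 in 12 of 21 and lower in 1 (19 and 0 on the deposited scale), while 14 were lower than in non-lactating glands. Annexins were higher than on day 14 in 10 of 13 (12 on the deposited scale), and 2 of 13 against non-lactating glands, Anxa1 and Anxa8. Interferon-stimulated genes were higher than on day 14 in 18 of 30, and macrophage markers in 11 of 16. On the deposited scale these were 30 and 16, where most genes were higher. Cholesterol synthesis genes were lower in 16 of 24 (median −0.89), a direction that flipped on the deposited scale (median 0.32, with 7 higher and 6 lower). Unfolded protein response genes were lower in 12 of 31 (median −0.16), which flipped too (median 1.18, with 24 higher and 1 lower). Against non-lactating glands the unfolded protein response list had 17 rises on day 8 and 18 on day 14, and 8 on day 21. Over all genes rises were 12.5% on day 8, 12.4% on day 14 and 11.5% on day 21, and calls in either direction on day 8 were 36.3%.

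**Figure D5:**
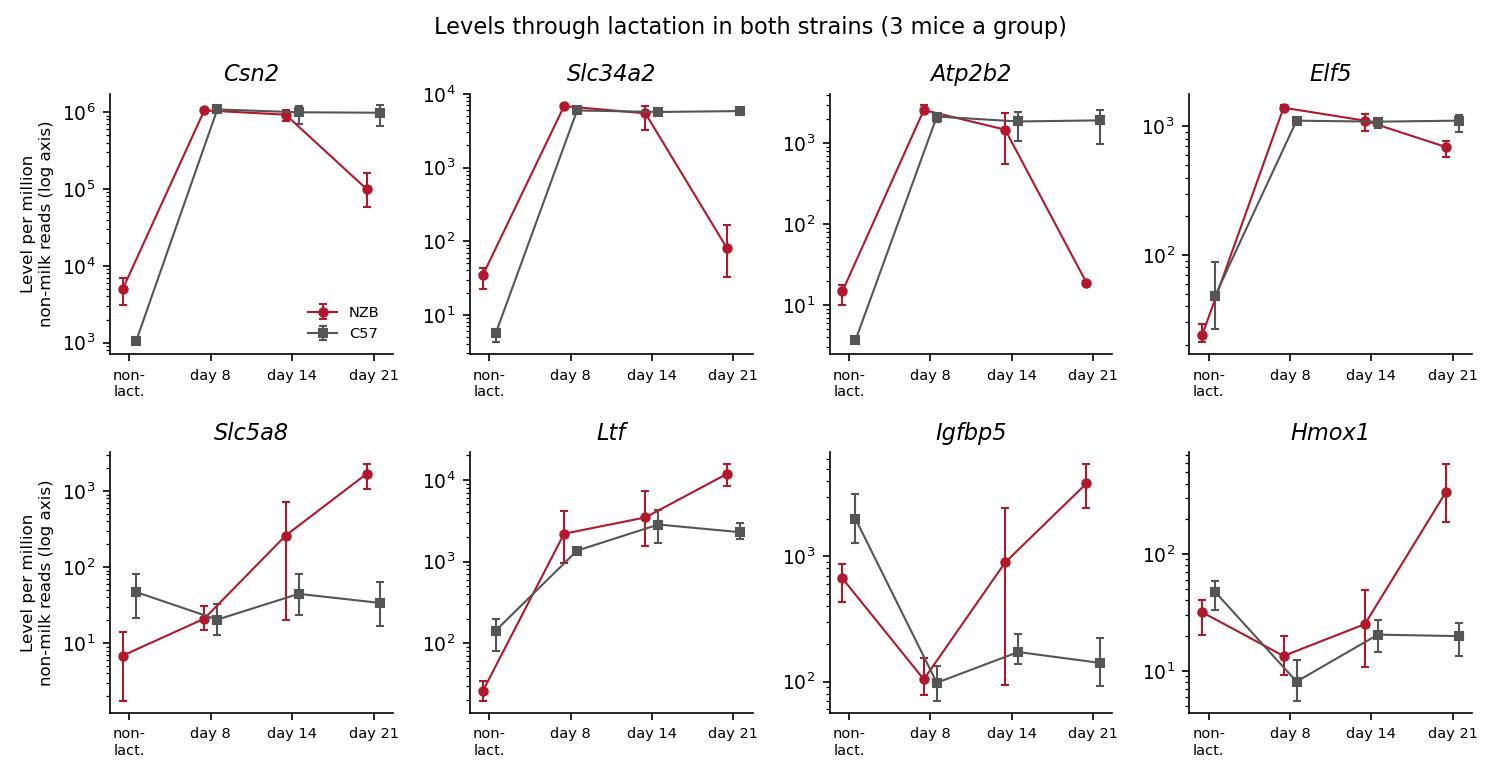
Mean level of 8 genes in non-lactating glands and on lactation days 8, 14 and 21, in reads per 1000000 non-milk reads on a log axis, with bars from the lowest to the highest of 3 mice; red circles are NZB and grey squares C57. In NZB the milk-making genes Csn2, Slc34a2 and Atp2b2 have lower means on day 21 than on day 14, and Slc5a8, Ltf, Igfbp5 and Hmox1 are at their highest there.

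The day 21 difference was compared with that in C57 mice, whose day 21 glands still had milk protein shares of 61.95%, 76.18% and 74.05%. The test asks whether the day 21 response, each strain against its own non-lactating glands, differed between NZB and C57. It did in 1370 of 16432 genes with a higher response in NZB (8.34%) and in 429 with a lower response (2.61%), and the median difference of all genes was 0.18. On the deposited scale that median was 1.27 and 9268 of 16061 genes were higher and 141 lower. The higher count was 793, 857, 899 and 894 without C57 day 21 mouse 2, C57 day 21 mouse 3, C57 non-lactating mouse 1 and NZB day 21 mouse 2. The lower count was 282, 278, 285 and 878 without C57 day 21 mouse 2, C57 day 21 mouse 3, C57 non-lactating mouse 3 and NZB non-lactating mouse 1. C57 non-lactating mouse 3 is the sample whose genotype tag names NZB while its title names C57, and without it 1000 genes had a higher and 285 a lower response in NZB. The comparison shares all 6 NZB glands with the first one. Among the lower were Slc34a2 (difference −8.89 ± 0.64, adjusted p = 2e-05) and Atp2b2 (−8.21 ± 0.45, adjusted p = 2e-06). Slc34a2 averaged 81.3 in NZB day 21 and 34.3 in NZB non-lactating glands, and 5860 and 5.59 in the C57 glands of the same states. The caseins had a lower response in NZB in 5 of 5, Csn2 among them (−5.61 ± 0.81, adjusted p = 0.0012). Lao1 (−7.24 ± 0.69, adjusted p = 0.00011), Olah (−6.31 ± 0.52, adjusted p = 5.3e-05), Csn1s2a (−6.15 ± 0.66, adjusted p = 0.00022), Csn1s2b (−5.51 ± 0.64, adjusted p = 0.00034) and Cidea (−5.85 ± 0.73, adjusted p = 0.00057), a lipid droplet protein, also had a lower response. Serpina3g (−6.48 ± 1.07, adjusted p = 0.0025) and Serpina3f (−5.76 ± 0.87, adjusted p = 0.0015) did too, and these serine protease inhibitors belong to a cluster of close copies. In deposited CPM, NZB non-lactating mice 1, 2 and 3 had 4.76, 19.33 and 61.12 for Serpina3g and 1.56, 2.38 and 9.98 for Serpina3f. The NZB day 21 mice had 12.88, 4.86 and 4.48, and 1.03, 0.27 and 0.61. Both genes were thus highest in non-lactating mouse 3, a library rich in lymphocyte transcripts, whose part was not tested.

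Slc5a8 led the higher responses (difference 8.54 ± 0.9, adjusted p = 0.00021), averaging 1700 in NZB day 21 and 6.88 in NZB non-lactating glands, and 33.8 and 47.1 in C57. Igfbp5 followed (6.3 ± 0.61, adjusted p = 0.00012), averaging 3820 and 665 in NZB, and 141 and 1990 in C57, so it was higher on day 21 in NZB and lower on day 21 in C57. Anxa1, annexin A1, had the same arrangement (5.9 ± 0.68, adjusted p = 0.00033), with 330 and 56.5 in NZB, and 19.1 and 162 in C57. Ltf rose in both strains and by more in NZB (4.73 ± 0.49, adjusted p = 0.00019), averaging 11800 and 25.9 in NZB, and 2290 and 143 in C57. Hmox1 (4.48 ± 0.57, adjusted p = 0.00062), Cd14 (5.25 ± 0.59, adjusted p = 0.00026), Tgfb3 (4.48 ± 0.57, adjusted p = 0.00059), Osmr (3.49 ± 0.41, adjusted p = 0.00034) and Ctsl (3.05 ± 0.4, adjusted p = 0.00074) also had a higher response in NZB. By list the higher responses numbered 10 of 13 annexins, 9 of 22 acute phase genes, 10 of 21 matrix protease genes, 10 of 27 fatty acid oxidation genes and 6 of 28 NRF2 targets. On the deposited scale, where 9268 genes had a higher response, these counts were 13, 13, 17, 22 and 26 in that order. For Slc5a8, Igfbp5, Anxa1 and Ltf the non-lactating mean was higher in C57 than in NZB, and the difference of responses includes that gap. Some list sums also differed between non-lactating glands. Myoepithelial markers summed to 917.1 to 1534 in C57 and 373.0 to 619.1 in NZB. Caseins went the other way, at 2402 to 2795 in C57 and 6832 to 14530 in NZB. Endothelial sums overlapped, at 904.0 to 1036 and 932.4 to 1504. The mitochondrial mt-Co2, a subunit of cytochrome oxidase, had a lower response in NZB (−2.06 ± 0.4, adjusted p = 0.0063), the only mitochondrially encoded gene of 13 called on the non-milk scale, where on the deposited scale none was lower and 5 were higher, and was not called within NZB (−0.89 ± 0.35, adjusted p = 0.12).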

How the data were processed

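Poly(A) RNA of snap frozen inguinal mammary glands was sequenced by the authors, 3 mice per group. The authors deposited 1 table of gene values as log10(CPM + 1), with 2 columns per mouse, per the file headers. The submitters' processing notes name the builds GRCm38 and mm10. Which aligner and counter were used is not given in the sources used here. The log10 values the authors deposited were turned back into CPM and the 2 columns of a mouse averaged, so that a mouse counts once. Low values in every column were whole multiples of 1 read (100% within 0.05), which gave the depths. These were 9.92 to 18.87 times 1000000 reads in the NZB day 21 and NZB non-lactating glands. In these glands a chi-square test of counts gave 0.5512 to 0.814 per gene between columns of a mouse and 47.148 to 210.736 between mice of a group. C57 non-lactating mouse 2, used in the strain test, had uneven columns of 2.17 and 11.89 times 1000000 reads. The chi-square between them was 1.635 per gene, and they were averaged like those of other mice. Without this mouse the strain test gave 1048 higher and 380 lower responses in NZB. 27 repeated or date-like symbols were left out.

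Milk protein genes (20 measured) were removed from the total, which gives the non-milk scale. Genes with CPM over 1 in at least 3 of 6 libraries were tested on log2(CPM + 1) with limma 3.58.1 (lmFit and eBayes with trend, R 4.3.3) on the 6 mice, with Benjamini-Hochberg adjustment at 0.05. The pseudocount of 1 understates fold changes of low genes. The comparisons with day 14 and with C57 used the same model on their own libraries, and other steps used Python 3.11.15 with scipy 1.17.1, pandas 2.3.3, matplotlib 3.10.9 and numpy 2.4.6. Genes named for size are the 10 largest called increases and 10 largest decreases whose groups do not overlap and whose mean log2(CPM + 1) in the higher group is at least 2, leaving out unnamed models, antigen receptor segments and pseudogenes. Other named genes are members of 53 gene lists, mostly those with the smallest adjusted p, those that go against their list, or known markers. The samples, lists and members were chosen with earlier results of these data known. The fits were also run on simulated counts with known changes. These had 1 spread for all genes of a group, no milk rescaling and no outlying library. They therefore cannot show how the fits behave with those features. A planned negative binomial count test was replaced by limma voom on the recovered reads, since the deposited unit is log10. C57 non-lactating mouse 3 carries a genotype tag of NZB and was kept as C57 by its title, which bears on the comparison of strains.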

Additional observations from a re-analysis of the deposited data

Results flagged for a closer look

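The day 21 response, each strain against its own non-lactating glands, differed between NZB and C57 by limma on the difference itself. It was higher in NZB for 1370 genes and lower for 429 at an adjusted p under 0.05, and each gene below is a difference of log2 fold changes, NZB less C57. Each such difference includes any gap between the non-lactating glands of the strains. The carrier Slc5a8 (8.54) and Clic6, an intracellular chloride channel protein (5.75), had a higher response in NZB. So did the IGF binding protein Igfbp5 (6.3), the immune checkpoint ligand Vtcn1 (6.0), annexin Anxa1 (5.9), Wfdc17 (5.88) and Clca3a2 (5.6). Foxi1, a factor of ion-transporting cells (6.12), the luminal keratin Krt19 (5.74) and the fibrinogen chain Fgg (5.62) had a higher response as well, although they did not pass between day 21 and non-lactating NZB glands.

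A lower response in NZB was found for the phosphate transporter Slc34a2 (−8.89), the calcium pump Atp2b2 (−8.21), the amino acid oxidase Lao1 (−7.24), the thioesterase Olah (−6.31) and the lipid droplet gene Cidea (−5.85). It was also found for the caseins Csn1s2a (−6.15), Csn2 (−5.61) and Csn1s2b (−5.51), and for Serpina3g (−6.48) and Serpina3f (−5.76). Among NZB non-lactating glands the 2 Serpina3 genes were highest in mouse 3, a library rich in lymphocyte transcripts. The milk share of the C57 day 21 glands, 61.95% to 76.18%, was above that of the NZB day 21 glands, 18.24% to 30.47%, and its part in these differences was not tested.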

How the results depend on the processing

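Among the named genes of the day 21 against non-lactating comparison none changed sign while called. The scale turned the balance of calls, since rises outnumbered falls on the non-milk scale and falls outnumbered rises on the deposited scale. Against day 14 it turned the median of the cholesterol (−0.89 and 0.32) and unfolded protein response lists (−0.16 and 1.18), and in the strain test the mitochondrially encoded genes had 1 lower on the non-milk and 5 higher on the deposited scale. Against non-lactating glands, the 1808 rises became 1096 on the deposited scale and 2831 in a fit of all 24 samples, and 655 to 2510 with 1 mouse left out. The 1193 falls became 2563 on the deposited scale, 2538 in the fit of 24 samples and 2034 in a fit of the 12 NZB samples, and 172 to 1755 with 1 mouse left out. On the deposited scale the counts ran over 501 to 1309 rises and 773 to 3703 falls with 1 mouse left out. In the test between strains the deposited scale gave 9268 higher and 141 lower responses, and leaving out 1 mouse gave 793 to 1561 and 278 to 878. Against day 14 the deposited scale gave 13149 higher and 149 lower genes, and leaving out 1 mouse gave 714 to 2334 and 489 to 996. The milk share difference was 20.04 percentage points for 8 major milk genes and 20.57 to 26.68 with 1 mouse left out. The cause of these shifts was not tested. Pseudocounts, TMM factors, no filter, limma voom and the first column of each mouse kept counts within 1.5 times. The replicate numbers did not pair the mice (correlations of same-numbered mice 0.057, −0.221 and −0.072), and a fit with the replicate block called 1422 rises and 919 falls. Against non-lactating glands, the fall of Bank1 and the rise of Ccl28 lost their call in 8 alternatives each. In deposited CPM Ccl28 stood at 93.99, 21.7 and 34.95 in day 21 glands, against 15.69, 8.64 and 15.22 in non-lactating glands. The fall of Ccl28 since day 14 was not part of that count. The negative binomial quasi-likelihood count test was not run. In the NZB day 21 and NZB non-lactating glands, depth of 9.92 to 18.87 times 1000000 reads limits genes near 0 in 1 group.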

Other observations

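Some clock genes differed between the groups. Of 18 measured clock genes 2 rose and 6 fell in day 21 glands, beside 11.5% and 7.57% of all genes, so the rises were near the share of all genes. The fallers were 0 without day 21 mouse 2 or day 21 mouse 3 and 7 without non-lactating mouse 3. The sample titles name no hour of collection, and the part of time of day was not tested. Dbp, an output factor of the clock, stood at 23.5, 13.7 and 14.3 in day 21 glands, against 81.5, 69 and 41.8 in non-lactating glands (log2 fold change −1.83 ± 0.33, adjusted p = 0.0094). Cry2, a repressor of the clock, stood at 25.7, 19.6 and 19.2 in day 21 glands, against 75.6, 69.5 and 43.3 in non-lactating glands (log2 fold change −1.48 ± 0.27, adjusted p = 0.011). Npas2, an activator, rose and stood at 31.2, 27.5 and 25.8 in day 21 glands, against 10.1, 10.2 and 4.35 in non-lactating glands (log2 fold change 1.74 ± 0.34, adjusted p = 0.013). In each of these 3 called genes the groups did not overlap, as in 38.9% of all genes tested.

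Skeletal muscle genes varied widely within both groups. Their summed level was 372.8, 1149.0 and 14.8 in day 21 glands, against 153.8, 74.3 and 754.5 in non-lactating glands, and 0 of 14 passed by limma or limma voom, with 0 at an unadjusted p under 0.05. Of the plasma cell markers 5 of 11 rose and 2 fell (0 without day 21 mouse 2, day 21 mouse 3 or non-lactating mouse 2 and 2 without non-lactating mouse 1 or non-lactating mouse 3), and Derl3, a factor of protein quality control in secretory cells, rose (2.34 ± 0.4, adjusted p = 0.0084). Gdf15, a stress-induced ligand of the TGF beta family, stood at 2.29, 18.9 and 37.1 in day 21 glands, against 0.379, 0.245 and 0.409 in non-lactating glands (log2 fold change 3.34 ± 0.8, adjusted p = 0.026).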
